A study of Mus musculus with 4 samples.

Results

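Th2 cells grown with SH-2251 and untreated control Th2 cells were profiled on arrays, and 100 genes had a signal well above background in both control samples and in neither SH-2251-treated sample. Only 2 of them, Muc13 and Hrc, were bright enough in control cells, on the probe used for each gene, to show a decrease of at least 4-fold in both unstimulated and restimulated cells, and for 8 more the decrease was at least 2-fold in both states. Under another background correction, given below, neither Muc13 nor Hrc kept 4-fold in both states, and Hrc fell under 2-fold in unstimulated cells. None of the 8 kept a decrease of 2-fold in both states with it. For 7 of them the unstimulated decrease did not hold at all. The remaining 90 lay close to the detection limit in control cells as well, and the decrease that can be stated for them is under 2-fold in at least 1 state. The 100 genes were selected on these same array values, so their lower signal in SH-2251-treated cells is given below as a description, with no test. They were drawn from 18344 genes with a curated RefSeq mRNA on the array, each represented by its probe of the highest mean log2 signal. Of these, 11788 were well above background in control cells of both states, so the 100 genes were 0.848% of those that could have been lost.

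SH-2251 is a small thioamide-type molecule known to block IL-5 output, and the study asked which transcripts it changes in Th2 cells, the helper T cells that secrete IL-4, IL-5 and IL-13. CD4 T cells came from the spleens of young adult female C57BL/6J mice; the number of animals behind each sample was not given in the sources used here. They were cultured under Th2 conditions for 2 days on immobilized anti-TCR-β (3 µg/ml) with anti-CD28 (1 µg/ml), IL-4 at 10 ng/ml and IL-2 at 2.5 ng/ml, and then for 3 days with IL-2 and IL-4 alone. The treated cultures also held SH-2251, at 1 µM in the first phase and, as the labels have it, 1 mM in the second. The dose and the starting population in the labels differ from those in the study's methods, and which applied to these samples was not settled here. The 4 groups were therefore control and SH-2251-treated Th2 cells, each unstimulated or restimulated for 4 h with immobilized anti-TCR-β. Each group was 1 sample on 1 single-colour Agilent whole mouse genome array, so no difference below has a replicate check and no p-value is given.

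The array software marks a spot as well above background when its corrected signal clearly exceeds the local background noise. The arrays were alike in this respect, with between 56.0% and 56.7% of 41174 probes well above background, and no probe was saturated. All 4 arrays were on 1 slide and were scanned on 1 day. The lowest signal called well above background was 20.4 units of background-corrected intensity on the control unstimulated array, 24.4 on the SH-2251 unstimulated array, 19.8 on the control restimulated array and 21.8 on the SH-2251 restimulated array. The negative control spots, 153 on each array, had 99th percentiles of 32.2, 20.3, 23.6 and 31.8 units in the same order. Each of 14 Th2 marker genes was well above background on all 4 arrays. With SH-2251, 4 of them were at least 2-fold lower in unstimulated and 3 in restimulated cells, and 0 were higher. Over all genes compared, 2.9% and 2.8% were lower. As SH-2251 minus control on the log2 scale, Il1rl1 differed by -4.61 and -3.78 and Il5 by -3.86 and -3.01. Maf differed by -1.17 and -1.22 and Il13 by -1.32 and -0.57. Because cell numbers are not resolved in bulk RNA, fewer cells of a type and less RNA per cell cannot be told apart for any gene below.

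Mucins such as Muc13 are heavily glycosylated proteins that coat the apical surface of gut and airway epithelium. Hrc encodes the histidine-rich calcium-binding protein, which holds calcium in the lumen of the sarcoplasmic reticulum of muscle. Others of the 100 encode odorant and pheromone receptors, plasma proteins made in the liver, contractile proteins, and receptors or enzymes of macrophages.

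The promoter sequences of the 2 bright genes are shown because these genes carry the clearest decrease. Each is the 250 bases before the RefSeq transcription start on the plus strand of assembly GRCm38.p6, 5′ to 3′. For Muc13, which has 2 listed starts, the upstream start is shown, at chr16:33793787-33794036; for Hrc the window is chr7:45335019-45335268. Capitals mark matches, on either strand, to the motifs searched for.

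Muc13: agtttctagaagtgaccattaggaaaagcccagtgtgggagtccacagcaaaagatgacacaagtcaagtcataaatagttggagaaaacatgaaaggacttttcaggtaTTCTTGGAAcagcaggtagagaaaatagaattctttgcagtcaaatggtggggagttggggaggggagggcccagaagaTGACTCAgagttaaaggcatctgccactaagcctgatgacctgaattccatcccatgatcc

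Hrc: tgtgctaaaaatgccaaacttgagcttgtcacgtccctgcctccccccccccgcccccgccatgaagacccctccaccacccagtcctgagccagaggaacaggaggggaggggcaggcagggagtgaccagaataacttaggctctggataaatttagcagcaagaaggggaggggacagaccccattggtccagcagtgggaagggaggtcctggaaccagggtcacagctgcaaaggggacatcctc

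The Muc13 window held an AP-1 motif (TGACTCA) 61 bases before the start and a STAT motif (TTC and GAA with any 3 bases between them, here TTCTTGGAA) 140 bases before it. The Hrc window held no match to AP-1, STAT, a STAT form with a gap of 4 bases, NFAT (TGGAAA), the Gfi1 core (AAATCA), the GATA form AGATAA, the other GATA form TGATAA, the cyclic AMP response element, the TATA box form TATAAA or the PPAR/RXR and RAR/RXR repeats. Over 101 windows of 78 of the 100 genes, the AP-1 motif was in 4.95%, against 4.46% of 32851 windows of all genes. The STAT motif was in 9.90% against 7.02%, the Gfi1 core in 12.9% against 12.4%, and NFAT in 7.92% against 18.6%. TGATAA was in 15.8% against 7.94%, whereas AGATAA, the other GATA form, was in 7.92% against 9.99%. The STAT form with the wider gap was in 3.96% against 5.85%, the cyclic AMP response element in 5.94% against 1.55% and TATA in 18.8% against 12.4%. Neither nuclear receptor repeat was found in a window of these genes. A match is a string of letters and not a binding site, and several windows of 1 gene can overlap.

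Muc13 (NM_010739) had the largest bounds of the 100 genes in both states. Its intensity was 523 in control unstimulated cells, 5.87 in SH-2251-treated unstimulated cells, 1090 in control restimulated cells and 20.2 in SH-2251-treated restimulated cells. Both control samples were high and both SH-2251 samples lay under the lowest signal called well above background on their arrays. A signal below that level gives only a bound, so each decrease is stated as at least the ratio of the control signal to the higher of the treated signal and that lowest level, after dividing each array by its 75th percentile. Where the treated signal exceeded that level without being called well above background, the ratio is as measured and not a lower bound. The decrease of Muc13 was at least 23.4-fold in unstimulated cells and at least 58.3-fold in restimulated cells. The technical SD that the scanner software gives for the control levels was 0.15 and 0.14 on the log2 scale, which is small beside bounds of 4.55 and 5.86 but covers the scan only. On the restimulated SH-2251 array a softer flag of the software, for a positive and significant signal, was still set, and on the unstimulated SH-2251 array it was not.

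Hrc (NM_010473) had an intensity of 237 in control unstimulated cells, 27.3 with SH-2251, 181 in control restimulated cells and 20.7 with SH-2251. It was high in both control samples and near the detection limit in both treated samples, though on the unstimulated SH-2251 array its signal exceeded the lowest signal called on that array (24.4) and the 99th percentile of the negative controls (20.3). It was therefore not selected when either the softer flag or that percentile was used to call a signal present. In unstimulated cells the decrease was therefore 9.52-fold as measured, with a technical SD of 0.39 on the log2 scale, and not a lower bound. In restimulated cells it was at least 9.67-fold. The residual signal passed the software's softer flag on both SH-2251 arrays, so the transcript was reduced to the limit of the array and was not shown to be absent.

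**Figure D1:**
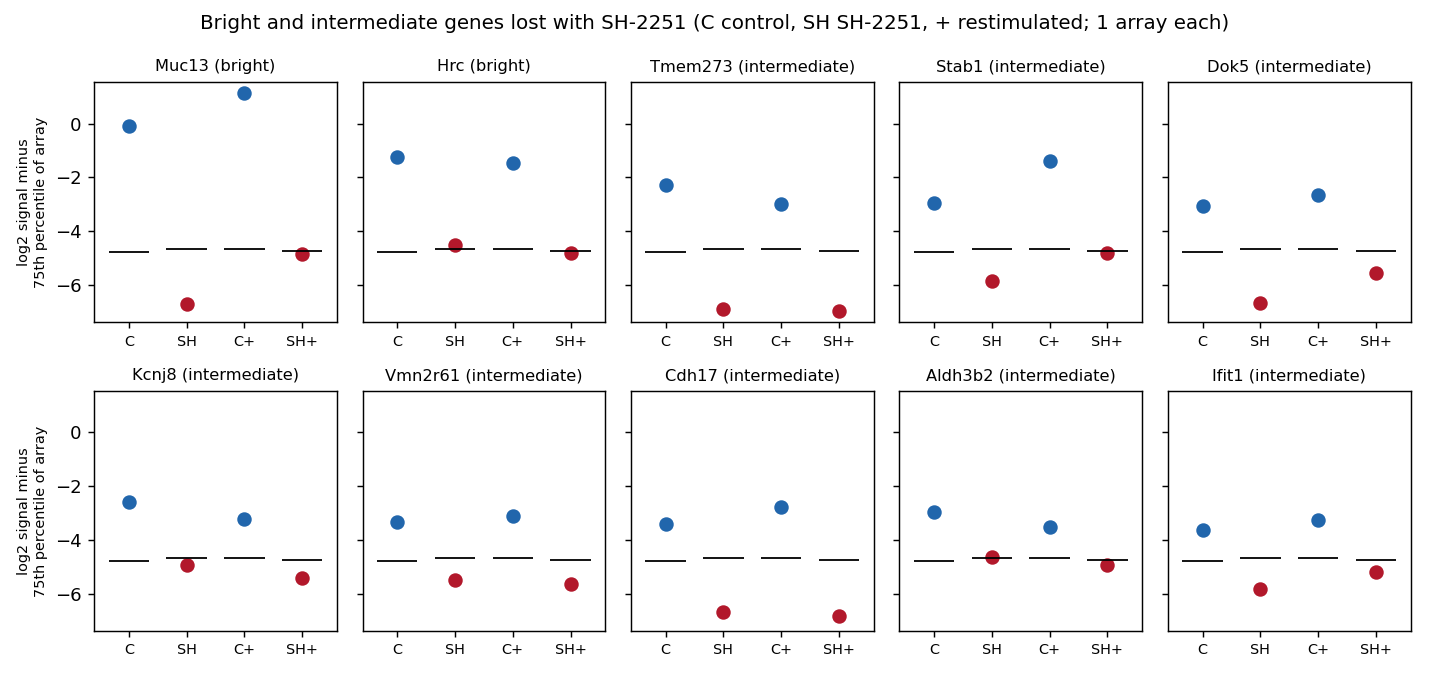
Level of the 2 bright and 8 intermediate genes on each array, as log2 intensity minus the array's 75th percentile; blue points are control and red points SH-2251-treated Th2 cells, C and SH are unstimulated, C+ and SH+ restimulated, and the short black line is the lowest level called well above background on that array. Muc13 in control cells lies near the 75th percentile of its array (-0.10 and 1.13), and the red points of all 10 genes lie near or under the black lines.

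The 8 intermediate genes encode proteins of varied function, with decreases of at least 2.03-fold to 5.18-fold in unstimulated cells and at least 2.32-fold to 10.1-fold in restimulated cells. Stab1 (NM_138672) encodes stabilin-1, a scavenger receptor of alternatively activated macrophages and sinusoidal endothelium. Its intensity was 73.2 and 190 in unstimulated and restimulated control cells, and 10.6 and 20.9 with SH-2251. Both control values exceeded both treated values, which follows largely from the selection. The bound was 3.28-fold in unstimulated and 10.1-fold in restimulated cells.

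Tmem273 (NM_001163616), a transmembrane protein, had an intensity of 116 and 62.4 in unstimulated and restimulated control cells against 5.15 and 4.65 with SH-2251. Cdh17 (NM_019753), the liver-intestine cadherin that joins intestinal epithelial cells, had 52.9 and 73.2 in control cells against 5.95 and 5.21 with SH-2251. For these genes neither SH-2251 array passed even the softer flag, so the treated signal was not distinguishable from background. The bounds were 5.18-fold and 3.33-fold for Tmem273 and 2.37-fold and 3.91-fold for Cdh17, in unstimulated and restimulated cells.

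Dok5 (NM_029761), an adaptor that docks to receptor tyrosine kinases, had 68.0 and 78.8 units in unstimulated and restimulated control cells against 5.99 and 12.6 with SH-2251. Kcnj8 (NM_008428), the pore subunit Kir6.1 of ATP-sensitive potassium channels, had 94.1 and 53.9 units in control cells against 20.1 and 13.7. Ifit1 (NM_008331), an interferon-induced protein that binds viral RNA, had 45.2 and 51.8 units in control cells against 10.9 and 15.9. In each case both treated samples were below both control samples, which follows largely from the selection. Bounds in unstimulated and restimulated cells were 3.05-fold and 4.21-fold for Dok5, 4.21-fold and 2.88-fold for Kcnj8, and 2.03-fold and 2.77-fold for Ifit1.

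Vmn2r61 (NM_001105058), of the vomeronasal pheromone receptors, had 55.5 and 58.4 units in unstimulated and restimulated control cells against 13.7 and 11.7 with SH-2251. Aldh3b2 (NM_001177438), an aldehyde dehydrogenase, had 72.9 and 43.4 units in control cells against 24.6 and 19.1. Their bounds were 2.49-fold and 3.12-fold, and 3.25-fold and 2.32-fold. The 3.25-fold of Aldh3b2 is the measured ratio, as its treated signal exceeded the lowest level called on that array. Vmn2r61 belongs to a large family of similar sequences that the probe may not separate.

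Over all 100 genes the bound reached 2-fold for 20 in unstimulated and 26 in restimulated cells. For comparison, 2.9% of 12609 genes compared in unstimulated cells and 2.8% of 12555 compared in restimulated cells were at least 2-fold lower with SH-2251, and 2.3% and 2.72% were at least 2-fold higher. As the selection used the same contrast, nothing is read from these shares. The median difference over all genes compared was -0.05 in unstimulated and -0.06 in restimulated cells on the log2 scale after each array had been set to its 75th percentile.

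The bounds depended on the background correction. The normexp method, a convolution model of signal and background, was applied to the median signal and median local background of each spot. With it no gene reached 4-fold in both states, and Muc13 had bounds of 1.56 and 3.90 and Hrc of 0.52 and 1.58 on the log2 scale. When spots of uneven background were left out of that fit, an alternative added after the values were seen, Muc13 alone was bright, with bounds of 2.65 and 3.91. With normexp on all spots the unstimulated bounds of Stab1, Dok5, Kcnj8, Vmn2r61, Cdh17, Aldh3b2 and Ifit1 turned below 0, the lowest being -0.63 for Ifit1. Without the spots of uneven background those of Stab1 (0.78), Dok5 (0.73), Kcnj8 (0.96), Vmn2r61 (0.57), Cdh17 (0.53) and Ifit1 (0.55) were above 0 but under 2-fold, and Aldh3b2 had no unstimulated value there. Tmem273 had bounds of 0.18 in unstimulated and 0.94 in restimulated cells with normexp on all spots. Without the spots of uneven background its bounds were 1.28 and 0.95. In restimulated cells, only Stab1 (1.66) of the 8 intermediate genes stayed at 2-fold or more with normexp on all spots. Ifit1, the smallest of the intermediate genes, also fell under 2-fold in unstimulated cells with median centring (0.96).

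**Figure D2:**
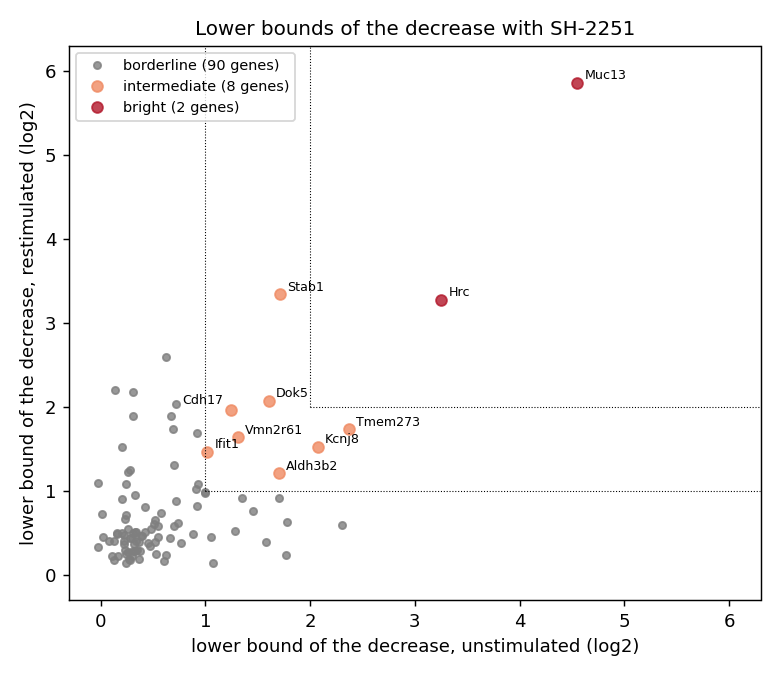
Lower bound of the decrease with SH-2251 in unstimulated (x axis) and restimulated cells (y axis), log2 control minus SH-2251, for the 100 genes; dotted lines mark 2-fold and 4-fold. Muc13 and Hrc lie beyond 4-fold on both axes, 8 intermediate genes beyond 2-fold on both, and the 90 borderline genes crowd at low values with medians of 0.36 and 0.50.

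The 90 borderline genes were under 2-fold in at least 1 state. Their intensity in control unstimulated cells ran from 21.9 to 110 with a median of 28.8, and in SH-2251-treated unstimulated cells from 4.83 to 30.1 with a median of 21.3. In restimulated cells it ran from 20.6 to 113 with a median of 27.2 in control cells and from 4.49 to 26.2 with a median of 19.4 with SH-2251. The ranges of control and treated samples thus overlapped in both states. The median bound was 0.36 in unstimulated and 0.50 in restimulated cells on the log2 scale.

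For 82 of the 90 the softer flag was set on both SH-2251 arrays, that is, a signal remained there. Against the negative control spots, the 4 arrays did not treat these genes alike: in unstimulated cells 37 of the 90 exceeded the 99th percentile in the control sample and 59 in the SH-2251 sample, while in restimulated cells 89 exceeded it in the control sample and 0 in the SH-2251 sample. The part of these unequal negative control levels in the selection of the borderline genes was not tested.

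**Figure D3:**
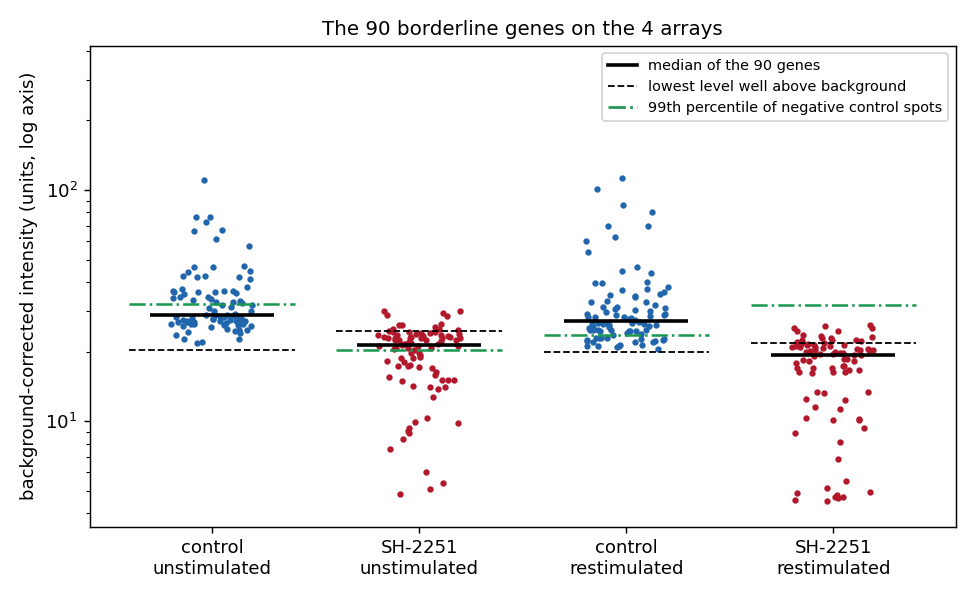
Background-corrected intensity (log axis) of the 90 borderline genes on each array, 1 point per gene, with their median, the lowest level called well above background and the 99th percentile of the negative control spots. Control medians of 28.8 and 27.2 lie just above the dashed lines and SH-2251 medians of 21.3 and 19.4 just under them, and the negative control percentile lies above the median on the control unstimulated (32.2) and SH-2251 restimulated (31.8) arrays.

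The values at the edge of the rule show how narrow it was. Just inside it, Fzd10, a Wnt receptor, had 21.9 units in control and 21.3 in treated cells when unstimulated, and 23.6 and 4.57 when restimulated. Cpsf4l and Gm9758 were as close to the limit in unstimulated cells, at 22.0 against 9.84 and 22.6 against 19.8 units. For Fzd10 and Cpsf4l the unstimulated control level was below the lowest level called well above background on the SH-2251 array after scaling, so no decrease can be stated. Just outside it, 228 genes were well above background in both control samples and in 1 of the SH-2251 samples, of which 116 lacked it in unstimulated and 112 in restimulated cells. Eml1, which encodes a microtubule-associated protein, was the largest of these, with 536 and 471 units in unstimulated and restimulated control cells against 14.5 and 29.2 with SH-2251. It remained well above background on the restimulated SH-2251 array and so was left out, although its bound in unstimulated cells, 4.58 on the log2 scale, was like that of Muc13. Fgl2, a fibrinogen-like immune regulator, was left out because it remained well above background on the unstimulated SH-2251 array, with 171 and 156 units in control cells against 25.5 and 10.2 with SH-2251.

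The opposite pattern, well above background on both SH-2251 arrays and on neither control array, was found in 75 genes. Of these 6 were bright, 10 intermediate and 59 borderline by the same limits, compared with 2, 8 and 90 among the genes lost. The bright genes were thus fewer among those lost than among those gained, although more genes were lost than gained. The difference between the counts was not tested, as each group is 1 sample.

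The 100 genes were grouped by function after they were known. How common each function is over all genes was not counted. Nothing is therefore read from the size of any group here or below. Of the 100, 14 are epithelial genes. Beside Muc13 and Cdh17 these were borderline. Vil1, villin of the microvilli, had 76.5 and 29.1 units in unstimulated and restimulated control cells against 14.1 and 8.88 with SH-2251, and Pdzk1, a scaffold of apical transporters, had 41.1 and 26.2 against 16.3 and 12.3. The bounds of Vil1 were 1.78 and 0.64 on the log2 scale. The others, among them Muc1, Krt8 (a keratin of simple epithelia), Rab25, Slc34a2 (a phosphate transporter), Atp4b (of the gastric proton pump) and 2 Paneth cell defensins, Defa20 and Defa39, had a smaller bound of 0.21 or more but under 1. The defensins have near-identical copies.

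An intestinal list of 20 genes, also drawn up after the values were seen, was used to look at other genes of that tissue. Of 19 with a probe, 7 were well above background on all 4 arrays and 7 on none, the latter including Cdh1, Cdx1, Cdx2 and Elf3. Of the genes of this list outside the 100, Epcam, an epithelial adhesion molecule, differed by -0.73 in unstimulated and -0.14 in restimulated cells, and Krt18, the partner of Krt8, by -0.87 and -0.72, on the log2 scale as SH-2251 minus control. Lgals4, a galectin, differed by 0.35 and 0.21. In all, 3 of 11 genes compared in unstimulated cells and 2 of 12 in restimulated cells were at least 2-fold lower. Over all genes compared these shares were 2.9% and 2.8%. All the lower genes were among the 100, which were selected for a low signal with SH-2251, so nothing is read from these counts. In either state 0 were 2-fold higher, against 2.3% and 2.72% of all genes compared.

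Among 12 mucin genes with a probe, Muc13 and Muc1 were in the set of 100 and no other mucin fell by 2-fold. Muc20 differed by -0.79 and -0.47 and Muc2, the main gel-forming mucin of the gut, by -0.69 and -0.32 in unstimulated and restimulated cells. Cd164, the sialomucin endolyn, differed by 0.34 and 0.52, and Mcam, a cell adhesion molecule listed with them, by 0.91 and 1.30. Muc1, a transmembrane mucin like Muc13, had only 28.2 and 26.6 units in unstimulated and restimulated control cells against 18.1 and 21.9 with SH-2251, bounds of 0.34 and 0.51.

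Muscle genes made up 9 of the 100. Hrc was the bright one. Myh11, the smooth muscle myosin heavy chain, had 110 and 28.2 units in unstimulated and restimulated control cells against 20.4 and 20.5 with SH-2251, so that its bound was 2.30 on the log2 scale in unstimulated cells but 0.59 in restimulated cells. Dysf, which encodes the membrane repair protein dysferlin, had 72.6 and 35.2 units against 18.8 and 21.4. Ppp1r3a, which targets protein phosphatase 1 to glycogen, had 76.1 and 22.1 units against 7.54 and 16.3. Sntb1, a syntrophin, and Kbtbd13 were larger in restimulated cells, with bounds of 1.74 and 1.89 there against 0.69 and 0.68 in unstimulated cells.

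Other calcium store genes of the endoplasmic reticulum were listed beside Hrc. Of 25 with a probe, 17 could be compared in each state, and Hrc alone was 2-fold lower, with 0 higher. The calcium pump Atp2a2 differed by -0.06 and 0.08 in unstimulated and restimulated cells, and Atp2a3, its form in blood cells, by -0.13 and -0.04. The inositol trisphosphate receptor Itpr1 differed by -0.53 and -0.95. Casq1, Casq2 and Trdn, the calsequestrins and triadin of the muscle store, were well above background on no array, so a loss could not be seen for them.

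Immune and myeloid genes made up 9 of the 100, including Stab1 and Ifit1. Arg1, the arginase of alternatively activated macrophages and liver, had 42.4 and 33.1 units in unstimulated and restimulated control cells against 5.07 and 4.68 with SH-2251, and neither treated array passed the softer flag. Csf2rb2, the IL-3-specific beta chain of the mouse cytokine receptor, had 61.3 and 31.7 units against 22.0 and 21.9. The bounds were 0.92 and 0.82 for Arg1 and 1.46 and 0.76 for Csf2rb2. Fgr (a kinase of myeloid cells), Tbxas1 (thromboxane synthase), Ifna12, Cma2 (a mast cell chymase) and Atp6v0d2 (a proton pump subunit of macrophages and osteoclasts) had bounds between 0.14 and 0.52.

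Stab1 belongs to a list of scavenger receptors of which 18 had a probe and 8 were well above background on all 4 arrays. In unstimulated cells Stab1 was the only 1 of 9 compared that was 2-fold lower. In restimulated cells 3 of 11 were lower and 0 higher, against 2.8% and 2.72% of all genes compared. The list was drawn up with these values known, so nothing is read from the counts. The 3 were Stab1 and 2 more that control cells showed mainly after restimulation. Msr1, the class A macrophage scavenger receptor, had 66.9 units in control restimulated cells against 4.59 with SH-2251, and Olr1, the receptor of oxidized LDL, had 517 against 234. Cd5 and Cd6, scavenger-domain receptors of T cells, differed by between -0.03 and 0.33.

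Lists of cell type markers were read beside these values. None of the 100 genes was on the lists for myeloid cells, B cells, dendritic cells, NK and CD8 T cells, mast cells with basophils and eosinophils, or red cells and platelets. These lists held 7 to 11 genes with a probe each. The 100 genes were 0.848% of those well above background on both control arrays, so nothing is read from this absence. Intensities of all 11 myeloid markers with a probe were summed, also those not above background and without scaling between arrays. The sum was 1812 in control unstimulated, 1758 in SH-2251 unstimulated, 1643 in control restimulated and 1956 in SH-2251 restimulated cells. It was made up mostly of Adgre1 (1382, 1413, 1334 and 1656 units in the same order). Of the 11, 4 were well above background on no array, among them Lyz2 and Itgam. Among the myeloid markers, Fcgr3 was lower with SH-2251 by 1.44 and 1.11 on the log2 scale, at 122 and 62.5 units in control cells against 49.2 and 33.7. For mast cells, basophils and eosinophils the sums were 279, 221, 259 and 286, with 7 of 10 on no array. Gzma, on the list of NK and CD8 T cells, fell from 36172 to 11560 and from 47451 to 16765 units, while Cd8a on the same list went from 48.7 to 146 and from 70.6 to 162. On the other lists, at least 2-fold changes on the log2 scale were a rise of the red cell gene Hba-a1 by 1.15 and 1.28 in unstimulated and restimulated cells and of Alas2 by at least 1.57 in restimulated cells, of the B cell gene Ms4a1 by 1.21 and the dendritic cell gene Zbtb46 by 1.53 in restimulated cells, and a difference of -1.09 for Hdc of the mast cell list in unstimulated cells. The part of other cell types in the loss of the myeloid and epithelial genes was not tested.

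Receptors and signalling proteins formed several small groups. Beside Kcnj8, the channels and receptors of hormones and transmitters were 6 borderline genes, among them Agtr1a (angiotensin), Htr2b (serotonin), Hcrtr1 (orexin) and Kcnk4 (a potassium channel), with smaller bounds of 0.15 to 0.43. Gpr141, an orphan receptor, had 28.1 and 36.1 units in unstimulated and restimulated control cells against 6.02 and 4.65 with SH-2251. Of 6 intracellular signalling genes, Dok5 was intermediate. Frk, a kinase related to Src, had 34.5 and 113 units against 21.6 and 10.2, a bound of 2.59 in restimulated cells and 0.63 in unstimulated cells. Pde1c, a calcium- and calmodulin-dependent phosphodiesterase, had 44.6 and 36.8 against 24.3 and 13.2 units, and Spred2, an inhibitor of the Ras pathway, 66.7 and 31.1 against 30.1 and 25.2.

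Matrix genes were 4 of the 100. Ddr2, a receptor tyrosine kinase for collagen, had 42.2 and 60.5 units in unstimulated and restimulated control cells against 4.83 and 4.49 with SH-2251, below the softer flag on both treated arrays. Its bound was 0.92 in unstimulated and 1.69 in restimulated cells. Col4a2, a chain of basement membrane collagen, had 41.9 and 38.2 units against 18.2 and 20.4, and Lama4, a laminin chain, and Vwa1 had smaller bounds of 0.28 and 0.72. The 4 morphogen genes, Wnt4, Bmp4, Dkk3 and Fzd10, had smaller bounds from -0.03 to 0.45.

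The 12 odorant and vomeronasal receptors and the 7 genes of liver and plasma were borderline, with the exception of Vmn2r61. The smaller bounds of the receptors had a median of 0.24, and those of the liver genes ran from 0.19 to 0.48. Itih2, a plasma protease inhibitor chain, had a bound of 1.05 in unstimulated and 0.45 in restimulated cells. Among the 28 remaining genes, Btbd8 and Usp17la came nearest to the intermediate group, with bounds of 1.00 and 0.99 and of 0.93 and 1.08 in unstimulated and restimulated cells.

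How the 100 genes responded to restimulation of control cells was not part of the selection, apart from the requirement of a signal in both states. The level after 4 h of anti-TCR-β was at least 2-fold higher for 10 of the 100 and at least 2-fold lower for 4, against 6.61% higher and 6.98% lower of the 11788 genes well above background in both control samples. The median change was 0.01 on the log2 scale, and -0.06 over all 11788.

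The bright genes differed here. Muc13 rose 2.34-fold with restimulation of control cells, from 523 to 1090 units, and Hrc changed by -0.22 on the log2 scale. Stab1 rose 2.91-fold, from 73.2 to 190. The other 7 intermediate genes moved by less than 2-fold. Frk rose 3.67-fold, Invs, which encodes the ciliary protein inversin, 3.64-fold, and Ppfia4, a liprin, 3.41-fold, whereas Myh11 changed by -1.80, Ppp1r3a by -1.61 and Nckap5 by -1.28 on the log2 scale. The technical SD of these changes was between 0.20 and 0.36.

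**Figure D4:**
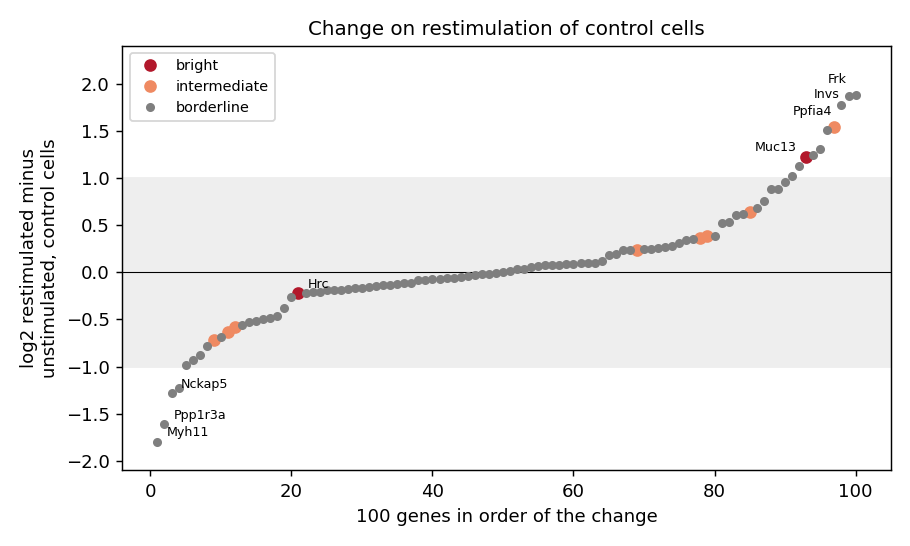
Change of each of the 100 genes on restimulation of control Th2 cells (log2 restimulated minus unstimulated), in order of the change, coloured by the size of their decrease with SH-2251; the grey band marks changes under 2-fold. Frk, Invs and Ppfia4 lie highest (1.88, 1.87 and 1.77), Myh11 lowest (-1.80), Muc13 at 1.23 and Hrc inside the band at -0.22.

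Other probes of the same genes gave a further reading that the rule did not use. Of the 100 genes, 27 had 36 other probes, all of lower mean log2 signal over the 4 arrays, of which 27 were well above background on no array, 9 on 1 to 3 arrays and 0 on all 4. The full pattern was repeated by 2. The second probe of Aldh3b2 had 214 and 96.9 units in unstimulated and restimulated control cells against 6.07 and 5.25 with SH-2251, bounds of 3.26 and 2.37 on the log2 scale, which would place the gene among the bright ones. The second probe of Col4a2 had 65.3 and 56.8 units against 10.2 and 8.27. The second probes of the intermediate genes Stab1 and Kcnj8 were well above background on no array. In unstimulated cells they had 17.1 units in control against 20.5 with SH-2251 for Stab1, and 13.3 against 15.6 for Kcnj8. In restimulated cells they had 18.4 against 9.86 for Stab1 and 19.2 against 12.9 for Kcnj8. Other probes went the other way in unstimulated cells, going with SH-2251 from 4.30 to 39.2 units for Muc1, from 18.3 to 33.5 for Krt8 and from 4.84 to 30.7 for the lipocalin Lcn9. Muc13 and Hrc had 1 probe each.

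In the order of RefSeq genes, the 100 had 200 different immediate neighbours, of which 85 had a probe. Of these 0 were themselves among the 100, but only 100 of all 18344 genes were, so nothing is read from this. Of the neighbours that could be compared, 2 of 45 in unstimulated and 3 of 49 in restimulated cells were at least 2-fold lower with SH-2251. The shares over all genes compared were 2.9% and 2.8%. At least 2-fold higher were 0 neighbours, against 2.3% and 2.72% of all genes compared. Gem, a small GTPase beside Cdh17, was lower in both states, by 1.48 and 1.26 on the log2 scale. Ppfia3, beside Hrc, differed by 0.12 and -0.33, and both neighbours of Muc13, a lncRNA and a pseudogene, had no probe of a curated mRNA.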

How the data were processed

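Total RNA (500 ng) was labelled with Cy3 and hybridised by the authors. They deposited 1 scanner file per array, written by Agilent Feature Extraction (version 10.7 in the submitters' processing notes), whose processed intensity is corrected for background. The deposited table of log2 values matched the log2 intensities minus a constant per array within 0.01 for at least 99.6% of probes; it was used as an alternative only.

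Levels were computed here as log2 intensity minus the 75th percentile of each array, after control spots and spots marked as outliers (77 to 106 per array) had been left out and spots of a probe averaged (Python 3.11.15, numpy 2.4.6, pandas 2.3.3). Of 27006 probes with an NM_ accession, 98.6% were matched to a symbol in the RefSeq table of GRCm38.p6; the rest kept the accession. A bound is the control level minus the higher of the treated level and the lowest level called well above background on that array. Where the treated level was the higher, the value is the measured difference. Bright genes had bounds of at least 4-fold in both states and intermediate genes of at least 2-fold. Named genes were the bright and intermediate genes, those at the edges of the rule and examples of each function. The members, lists and function groups were chosen with earlier results of these data known. One gene that met the rule is not reported here. Other presence calls, scalings, limits and normexp (limma 3.58.1, offset 50) were tried as alternatives. The pipeline was tested on simulated data in which only clear losses were planted. Losses as small as those of the borderline genes were not planted, so the test says little about them. With 1 array per condition, the number of arrays limits the precision and no test was run.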

Additional observations from a re-analysis of the deposited data

How the results depend on the processing

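The number of genes depended on how presence was called. Instead of 100 it was 193 with the softer flag of a positive and significant signal, of which 5 were shared (Tmem273, Cdh17, Ddr2, Arg1 and 4933412E24Rik), and 29 with the 99th percentile of the negative controls, of which 21 were shared. Keeping outlier spots (99), taking any probe (134), requiring all probes (75) and, added after seeing the data, counting each RefSeq accession as a gene (104) kept it within 1.5 times. Bright and intermediate genes were 14 and 17 without the lowest level as a limit, 0 and 1 with normexp, 1 and 1 with normexp without spots of uneven background (added after seeing the data), and 5 were bright at a limit of 3-fold. Genes higher and lower on restimulation of control cells were 1 and 0 with either normexp fit, 18 and 11 at 1.5-fold and 3 and 2 at 3-fold. With normexp the unstimulated bounds turned below 0 for Stab1 (-0.37), Dok5 (-0.43), Kcnj8 (-0.15), Vmn2r61 (-0.62), Cdh17 (-0.59), Aldh3b2 (-0.52) and Ifit1 (-0.63). On the SH-2251 unstimulated array the lowest spot signal minus its background was -4526.5 units, and the refit left out 816 spots there; in that refit none of the unstimulated bounds that it gave was below 0 (Stab1 0.78, Dok5 0.73, Kcnj8 0.96, Vmn2r61 0.57, Cdh17 0.53 and Ifit1 0.55, with none for Aldh3b2), and the cause of the reversals was not tested beyond this. The 20 bounds of the 10 bright and intermediate genes moved by no more than the technical SD of the control level with centring on the median, with quantile normalization and with the authors' processed values, but this took Ifit1 under 2-fold in unstimulated cells with the median (0.96) and quantiles (0.97), as did the 1st percentile as the lowest level (0.85), leaving 7 intermediate genes in each case; over all alternatives 74 values moved by no more, 58 by more and 7 reversed. The gene symbols of the array file could not be used as an alternative, since the files used here hold none. No paired analysis was possible because each condition is 1 array and the labels give no replicate numbers; a fit with the stimulation state as a block was left out, since its only residual would be the difference between the effects in the states. With a signal near the lowest level called, a decrease in the borderline genes was not measurable beyond the bounds given.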

Other observations

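A brightest-probe rule can pass over a gene whose weaker probe carries the pattern. In 34 genes outside the 100, another probe exceeded background in control cells of both states but in no treated sample; 31 of these were borderline and 3 intermediate, namely Loxl2 (a lysyl oxidase-like enzyme of the matrix), Cd93 (a surface glycoprotein of endothelium and myeloid cells) and Fgl2. These 34 genes were looked up after the values were seen. Their brightest probes did not carry the pattern, so they are not counted as lost. In unstimulated cells that probe had 503 units in control against 191 with SH-2251 for Loxl2, 1141 against 168 for Cd93 and 171 against 25.5 for Fgl2. Among the borderline genes its log2 difference in unstimulated and restimulated cells was -3.70 and -2.88 for Itga4. It was 0.27 and 0.02 for Gnas and -0.09 and -0.05 for Bap1.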
